A study of Mus musculus with 6 samples.

Results

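The 10 genes Dusp1, Dusp4, Dusp5, Dusp6, Dusp9, Spry1, Spry2, Spry4, Spred1 and Spred2 encode negative feedback regulators of ERK signalling. They were chosen by name, and every probe set annotated to exactly 1 of them was taken, which gave 27 of the 45037 probe sets tested on the array and 10 of 18193 genes. The RNA came from mouse embryonic stem cells of the Oct4-Gip line, a single line that carries a reporter driven by Oct4 regulatory sequences, cultured with serum and LIF. The knockdown group, 3 arrays, received 800 ng of esiRNA, an enzymatically cut pool of short interfering RNAs, directed at the long noncoding RNA Panct1. The control group, also 3 arrays, received the same amount directed at Luciferase, which mouse cells do not encode. In both groups, with arrays numbered 1 to 3 as in the labels, 60000 cells were transfected and RNA was taken after 72 hours. All levels are log2 signals summarised per probe set by RMA, so a difference of 1 is a doubling.

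ERK is the last kinase of a relay that runs from growth factor receptors through RAS, RAF and MEK, and in embryonic stem cells FGF4 made by the cells themselves is its main driver. Active ERK induces genes that restrain it. Dual-specificity phosphatases (DUSPs) remove the activating phosphates from MAP kinases, DUSP1, DUSP4 and DUSP5 in the nucleus and DUSP6 and DUSP9 mainly in the cytoplasm. Sprouty proteins act between the receptor and RAF, and Spred proteins, which share the cysteine-rich Sprouty domain, restrain RAS and RAF through neurofibromin.

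The phosphatase genes rose together, whereas the Sprouty genes divided. Of 27 probe sets, 8 rose and 5 fell at a limma adjusted p under 0.05, against backgrounds of 7.82% of all probe sets that rose and 6.76% that fell. The 8 comprised all 7 probe sets of the 5 Dusp genes and the one of Spry1. The 5 comprised all 4 probe sets of Spry4 and 1 of 2 for Spry2. None of the 13 Spred1 and Spred2 probe sets passed. An unadjusted p under 0.05 was found for 4 of them, beside 12068 of all 45037 probe sets. Without knockdown array 1 or 2, or without control array 1, 3 rather than 5 probe sets fell. The arrays of both groups did not overlap for 16 of the 27 probe sets, compared with 30.4% of all probe sets, 9 with knockdown above and 7 with knockdown below. The median difference over the 27 was 0.00, beside -0.02 over all probe sets.

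**Figure D1:**
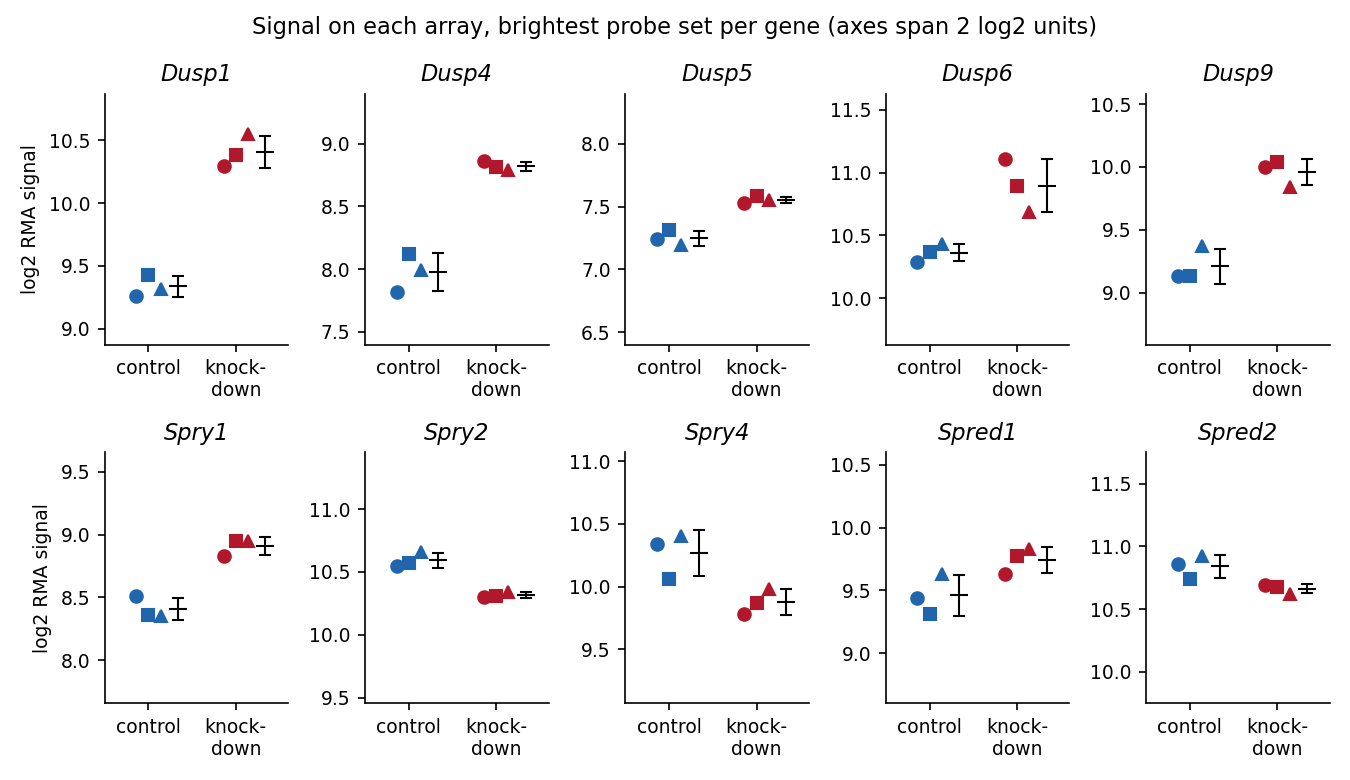
Log2 RMA signal (vertical axes, each spanning 2 log2 units) on every array for the brightest probe set of each gene, with controls in blue and Panct1 knockdown in red. Circles, squares and triangles are arrays 1, 2 and 3 of each group, and black bars give the mean ± SD of 3 arrays. All 3 knockdown arrays lie above the controls for the 5 Dusp genes and Spry1, and below them for Spry2, Spry4 and Spred2.

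Dusp1, an immediate early gene whose phosphatase acts on p38 and JNK as well as ERK, showed the largest rise of the set. Its single probe set read 9.26, 9.43 and 9.32 in controls and 10.30, 10.38 and 10.55 in knockdown, so the groups were separated by 0.87. The difference was 1.07 (SE 0.086; limma adjusted p = 1.07e-04), a 2.10-fold rise. Taken with 1 probe set per gene, it was rank 201 from the highest of 18193 differences. Dusp4, a nuclear phosphatase, read 7.82, 8.12 and 7.99 in controls and 8.86, 8.81 and 8.79 in knockdown. The knockdown arrays lay within 0.07 of each other, and the difference was 0.84 (SE 0.086; limma adjusted p = 3.64e-04).

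Dusp5, the nuclear phosphatase selective for ERK, moved least among the phosphatases. It read 7.24, 7.31 and 7.19 in controls and 7.53, 7.58 and 7.55 in knockdown, a difference of 0.31 (SE 0.066; limma adjusted p = 0.0147). The spread within each group was small, and the groups were 0.22 apart. Its call was lost without knockdown array 2 (adjusted p = 0.0606) and without control array 1 or 3 (0.0568 and 0.0528); all 14 alternatives gave between 0.00557 and 0.0606. Adjusted over genes with 1 probe set each, it passed in every one of those omissions.

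Dusp6, the cytoplasmic ERK phosphatase commonly read as an indicator of FGF-ERK output, had the largest spread between knockdown arrays among the phosphatases. Its control arrays read 10.29, 10.37 and 10.43 and its knockdown arrays 11.11, 10.89 and 10.69. All 3 knockdown arrays exceeded every control array, the lowest by 0.26. The difference was 0.53 (SE 0.11; limma adjusted p = 0.0104), a 1.45-fold rise, and it ranged from 0.43 to 0.64 when single arrays were left out.

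Dusp9, an X-linked phosphatase of the same cytoplasmic branch that is known as a BMP4 target in embryonic stem cells, was read by 3 probe sets made from 1 source sequence. They are therefore not independent readings. The brightest, 1454737_at, read 9.13, 9.13 and 9.37 in controls and 10.00, 10.04 and 9.84 in knockdown, a difference of 0.75 (SE 0.091; limma adjusted p = 9.16e-04). The other two rose by 0.68 and 0.48 (adjusted p = 0.00113 and 0.00472). On each of the 3, control array 3 was the highest control array and knockdown array 3 the lowest knockdown array, and no arrays overlapped.

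RefSeq promoter entries (assembly GRCm38.p6) were present for 7 of the 10 genes; Dusp4, Dusp9 and Spry4 had none. The 250 bases before the annotated start were searched on both strands for 6 motifs. TGACGTCA is the full cyclic AMP response element, and TGACG, which lies within it, is its core. TGANTCA is the usual site of the AP-1 factors FOS and JUN. The other three were the ETS factor core CCGGAA, the TATA box as TATAAA, and the CArG box, which binds serum response factor. Dusp1 and Dusp5 are shown because both rose and held matches, which are in capitals. The Dusp1 window is chr17:26508473-26508722 on the minus strand and the Dusp5 window chr19:53528895-53529144 on the plus strand, each directly upstream of the first exon and printed 5′ to 3′ on the gene's strand.
Dusp1: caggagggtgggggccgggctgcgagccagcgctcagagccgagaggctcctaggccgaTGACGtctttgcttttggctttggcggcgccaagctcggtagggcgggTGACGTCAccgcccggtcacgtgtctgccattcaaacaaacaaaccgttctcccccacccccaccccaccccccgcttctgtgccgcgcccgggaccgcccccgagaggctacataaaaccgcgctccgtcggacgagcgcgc
Dusp5: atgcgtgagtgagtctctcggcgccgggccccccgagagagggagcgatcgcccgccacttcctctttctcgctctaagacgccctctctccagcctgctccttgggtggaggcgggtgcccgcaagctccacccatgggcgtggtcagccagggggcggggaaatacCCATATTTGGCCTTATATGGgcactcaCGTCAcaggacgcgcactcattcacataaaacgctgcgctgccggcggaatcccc

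The Dusp1 window held 1 full TGACGTCA, which starts 143 bases before the annotated start and contains the core on both strands, and a further TGACG at 191 bases. The full element occurs in 1.55% of 32851 promoter windows of this length, and the core in 17.8%. In the Dusp5 window, CArG boxes lay back to back at 82 and 72 bases (CCATATTTGG and CCTTATATGG), followed by a core on the opposite strand at 55 bases. A CArG box occurs in 1.47% of windows. None of the 6 motifs matched in the windows of Dusp6, Spry1, Spry2 and Spred1, and Spred2 held only a core, at 51 bases. A match describes these letters alone, and no binding was measured.

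Among the Sprouty genes, Spry1 rose while Spry2 and Spry4 fell. Spry1, whose product is best known for restraining RET and FGF signalling, read 8.51, 8.36 and 8.35 in controls and 8.83, 8.95 and 8.95 in knockdown. The lowest knockdown array was 0.32 above the highest control, and the difference was 0.50 (SE 0.075; limma adjusted p = 0.00263), a 1.42-fold rise. It kept its call in every omission of a single array.

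Spry4, a Sprouty widely used as an ERK target in embryonic stem cells, fell on all 4 of its probe sets. On 1422020_at the controls read 7.25, 7.38 and 7.30 and the knockdown arrays 6.73, 6.73 and 6.76, so it fell by 0.57 (SE 0.066; limma adjusted p = 7.16e-04). On 1422021_at, made from the same source sequence, it fell by 0.58 (adjusted p = 0.00169). On 1440867_at the controls read 9.41, 9.06 and 9.45 and the knockdown arrays 8.49, 8.71 and 8.64, and it fell by 0.69 (SE 0.11; adjusted p = 0.00407). The brightest set, 1445669_at, read 10.34, 10.06 and 10.40 in controls and 9.78, 9.87 and 9.98 in knockdown. There the groups were only 0.08 apart and Spry4 fell by 0.39 (SE 0.10; adjusted p = 0.0345). control array 2 was the lowest control on the last 2 sets but the highest on the first 2. The call on 1445669_at was lost without knockdown array 1 or 2 or control array 1 or 3 (adjusted p from 0.0908 to 0.121; 0.0109 to 0.121 over 14 settings), and the other three sets passed in each of these omissions.

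Spry2, which binds GRB2 and CBL after receptor activation, fell by less. The brighter set, 1436584_at, read 10.55, 10.57 and 10.66 in controls and 10.30, 10.31 and 10.34 in knockdown, and fell by 0.28 (SE 0.065; limma adjusted p = 0.0226). The dimmer set, 1421656_at, differed by -0.20 (95% interval -0.36 to -0.04; adjusted p = 0.0935), with its groups 0.08 apart. All 3 knockdown arrays lay below all controls on both sets. The call on the brighter set was lost on leaving out any array other than control array 2 (adjusted p from 0.0503 to 0.0777; 0.00566 to 0.0777 over 14 settings).

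The upstream windows of Spry1 (chr3:37639697-37639946, plus strand) and Spry2 (chr14:105896820-105897069, minus strand) are printed because these paralogues moved in opposite directions. Both have a GC content of 62.4%, and neither held a searched motif, so no letters are in capitals.
Spry1: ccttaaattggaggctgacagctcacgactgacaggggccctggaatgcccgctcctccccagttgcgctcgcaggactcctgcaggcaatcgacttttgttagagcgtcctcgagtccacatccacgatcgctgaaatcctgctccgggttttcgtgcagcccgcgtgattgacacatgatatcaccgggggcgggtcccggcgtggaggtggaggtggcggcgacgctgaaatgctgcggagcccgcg
Spry2: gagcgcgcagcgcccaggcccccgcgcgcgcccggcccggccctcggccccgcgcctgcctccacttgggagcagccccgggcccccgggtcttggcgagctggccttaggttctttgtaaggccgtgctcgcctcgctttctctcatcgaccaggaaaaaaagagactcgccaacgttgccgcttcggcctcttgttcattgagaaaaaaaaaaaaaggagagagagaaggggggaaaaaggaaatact

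Spred1 and Spred2, membrane-associated inhibitors of RAS and RAF activation, did not pass on any probe set. The brightest Spred1 set, 1423160_at, read 9.44, 9.31 and 9.63 in controls and 9.63, 9.77 and 9.83 in knockdown. The lowest knockdown array equalled the highest control, and the difference was 0.28 (95% interval 0.06 to 0.50; limma adjusted p = 0.0909). A second set from the same source, 1423161_s_at, differed by 0.25 without overlap (adjusted p = 0.0588). The other 6 differed by -0.01 to 0.12, and the signal of 1445228_at did not reach the lower quartile (4.65 to 4.70) on any array. Without control array 3 the brightest set passed, at 0.37 (adjusted p = 0.0407; 0.0407 to 0.237 over 14 settings). The second set, 1423161_s_at, passed with trend and robust variance (0.0409), with array weights (0.028) and among probe sets at or above the median signal (0.0279). Adjusted over genes, Spred1 passed in 6 of 16 settings, with adjusted p from 0.0177, under array weights, to 0.984.

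For Spred2 the 5 sets differed by -0.35 to 0.00. The brightest, 1434403_at, read 10.86, 10.74 and 10.92 in controls and 10.69, 10.68 and 10.62 in knockdown, a difference of -0.18 (95% interval -0.34 to -0.01; adjusted p = 0.154). Its groups were 0.05 apart. The dimmest, 1436892_at, gave the value of -0.35 (adjusted p = 0.105) from a mean control signal of 5.23, and passed without control array 3 at -0.46 (adjusted p = 0.0395; 0.0395 to 0.267 over 13 settings) and with the replicate block (0.0425). Adjusted over genes, Spred2 passed in 1 setting, array weights (0.049). Intervals of this width allow changes of the size seen for Spry2, so these data do not show that the Spred genes stayed level.

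**Figure D2:**
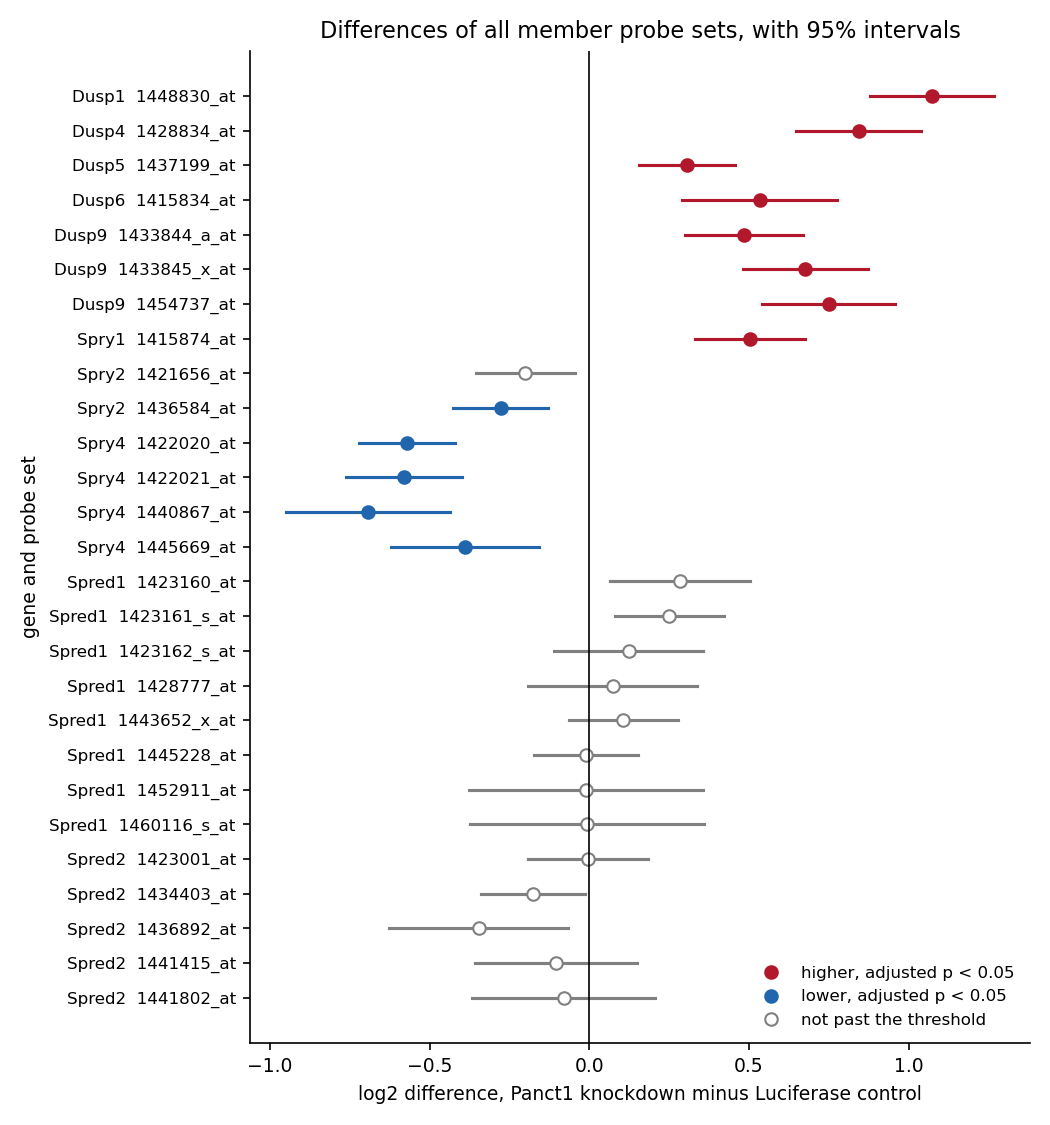
Log2 difference between Panct1 knockdown and Luciferase control (horizontal axis) for each of the 27 probe sets (rows), with 95% intervals from limma. Red and blue mark probe sets past an adjusted p of 0.05, higher and lower, and grey open circles the rest. The 7 Dusp sets lie between 0.31 and 1.07, the 4 Spry4 sets between -0.69 and -0.39, and the 13 Spred sets between -0.35 and 0.28.

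With 1 probe set per gene, 6 of the 10 genes rose and 2 fell, against 12.9% and 11.3% of all genes (24.2% in either direction). Their median difference was 0.41, beside -0.02 over all genes. Dusp1, Dusp4 and Dusp9 stood at ranks 201, 370 and 508 from the highest of 18193 differences. Dusp6, Spry1 and Dusp5 stood at 967, 1055 and 2014. Spry4 and Spry2 stood at ranks 909 and 1698 from the lowest. Of the 5 Dusp genes 3 rose by at least 1.5-fold, and no other member changed by that much on its brightest set.

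**Figure D3:**
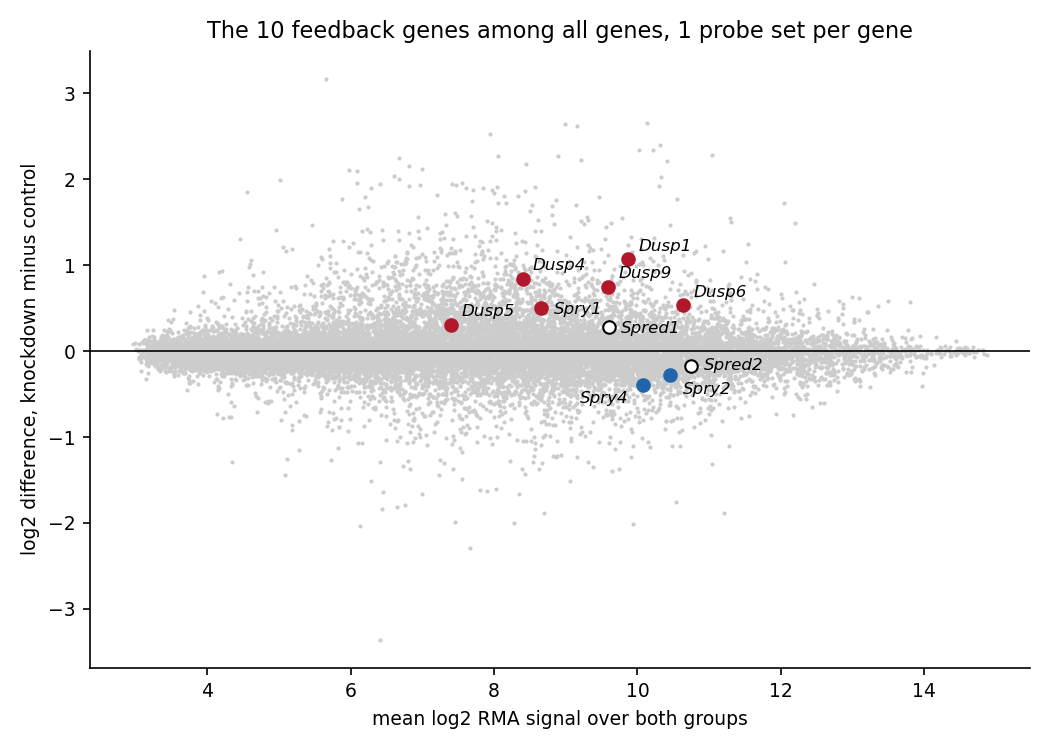
Log2 difference, knockdown minus control (vertical axis), against the mean log2 RMA signal over both groups (horizontal axis) for all 18193 genes (grey), with the 10 feedback genes labelled. Red and blue members passed an adjusted p of 0.05, higher and lower, and open circles did not. Dusp1, at 1.07, lies farthest from 0 among the 10.

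By likeness over the 6 arrays, measured as the Euclidean distance between log2 values centred on each gene's mean, the genes nearest Dusp1 were Pcgf5 (0.12), Rassf8 (0.15) and Spire1 (0.15). Nearest to Spry1 were Edn1 (0.096), Hexa (0.10) and Ets2 (0.12). With 2 groups of 3 arrays, such likeness mostly reflects a difference of similar size between the groups.

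Further rises were found among other MAP kinase phosphatases and among other inhibitors of receptor or RAS signalling. For comparison, 12.9% of all genes rose and 11.3% fell, and 6379 of 18193 had an unadjusted p under 0.05. Of the 5 remaining MAP kinase phosphatase genes, 2 rose and 0 fell by limma on 1 probe set per gene (0 fell also at an unadjusted p under 0.05), with a median of 0.14. Dusp16, a JNK and p38 phosphatase, read 9.75, 9.67 and 9.67 in controls and 10.66, 10.79 and 10.80 in knockdown, a 2.08-fold rise (difference 1.05; limma adjusted p = 1.58e-05). Dusp10, of the same specificity, rose by 0.50 from a mean of 6.12 (adjusted p = 7.88e-04), on 1 of its 2 probe sets. Dusp2, Dusp8 and Dusp7 differed by 0.14, 0.04 and -0.05 without passing, although 1 of the 3 probe sets for Dusp8 rose by 0.58.

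Of 14 other inhibitors of receptor or RAS signalling, 5 rose and 0 fell, against 12.9% and 11.3% of all genes, with a median of 0.11. The same counts held at an unadjusted p under 0.05. The receptor-level inhibitor Il17rd, also called SEF, rose by 0.40 (limma adjusted p = 0.00165) and the EGF receptor inhibitor Errfi1 by 0.46 (0.00543). The ubiquitin ligase Cblb rose by 0.45 (0.00538), the third Spred gene, Spred3, by 0.39 (0.0201), and the endocytic adaptor Dab2 by 0.26 (0.0274). Il17rd, Errfi1, Cblb and Dab2 rose on 1 of 2, 1 of 2, 2 of 3 and 1 of 4 probe sets. Without knockdown array 2 or control array 1, 3 of the 14 rose, and the calls of Spred3 and Dab2 were lost. The call of Dab2 was lost in 6 of its 8 alternatives, also without knockdown array 1 (0.0725) or control array 3 (0.0778), with the replicate block (0.0638), and with the mean of its probe sets, where the difference was 0.11 (0.212).

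Of 22 genes for adaptors, RAS, RAF, MEK and ERK, 15 had a value, and the others were not analysed here. Of the 15, 2 rose and 2 fell (median 0.02), close to the 12.9% and 11.3% of all genes. Gab1, a docking protein downstream of receptors, fell by 0.65 on its brightest set and fell on all 3 sets (limma adjusted p = 1.76e-04). Lamtor3, a MEK scaffold, fell by 0.21 (0.0390), a call lost on leaving out any single array. The ERK-activated kinase Rps6ka3 rose by 0.58 (0.00575) and the phosphatase Ptpn11, or SHP2, by 0.31 (0.0173), each on 1 of 3 probe sets. With the mean of all probe sets per gene 0 of the 15 rose, and these had adjusted p of 0.0885 and 0.198. The call of Ptpn11 was also lost without control array 1 or 3 (0.0712 and 0.0501), leaving 1 cascade gene that rose without control array 1. Shoc2 differed by 0.20 and did not pass (0.0876). Araf and Sos1, which did not pass per gene, each fell on 1 of 5 probe sets.

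Of 11 FGF ligand and receptor genes 4 rose and 3 fell, against 12.9% and 11.3% of all genes, with a median of -0.05. Fgf4, a ligand that the cells themselves make, read 11.12, 11.03 and 11.10 in controls and 10.03, 10.19 and 10.28 in knockdown. It fell by 0.92 (limma adjusted p = 7.26e-05). Fgf15 fell by 1.01, while Fgf5, Fgf8 and the receptor gene Fgfr2 rose by 1.44, 1.06 and 0.85. Fgfr2 rose on 2 of its 3 probe sets. Fgfr3 rose by 0.35 (adjusted p = 0.0268), on 1 of 2 sets. Fgf17 fell by 0.58 (0.0467) with overlapping arrays, and 0 of its 2 sets passed when adjusted over all probe sets. Fgfr3 and Fgf17 were named after their values were seen, to complete the count. Leaving out single arrays left 3 to 4 genes higher and 2 to 3 lower.

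Of 19 measured early response genes and ERK-induced transcription factors 8 rose and 3 fell, against 12.9% and 11.3% of all genes. Their median was 0.19. Ccn1, Klf6, Phlda1, Jun and Fos rose by 1.59, 1.11, 0.69, 0.86 and 1.70. For Ccn1, 2 of 4 probe sets rose, and its lowest difference was 0.24. The other 3 that rose, Egr2, Atf3 and Ier3, had differences of 0.75, 0.68 and 0.57. Egr2 rose from a mean control signal of 4.55, near the lower quartile of 4.65 to 4.70. Those that fell were Myc, which fell by 0.57, Ier2, which fell by 0.53, and Etv5, an ETS factor usually induced by FGF alongside the Sprouty genes, which fell by 0.29 (limma adjusted p = 0.0194). Egr2, Atf3, Ier3 and Ier2 were named after their values were seen, to complete the count. The call for Etv5 was lost without knockdown array 1 or control array 1 or 3 (adjusted p from 0.0571 to 0.0772). It was also lost with the replicate block (0.0534), and its adjusted p ranged from 0.0149 to 0.0772 over 8 settings. Egr1 and Etv4 differed by 0.24 and -0.15 without passing (0.108 and 0.302). Thus the ERK-linked genes did not move in 1 direction, nor did Dusp6 and Spry4.

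**Figure D4:**
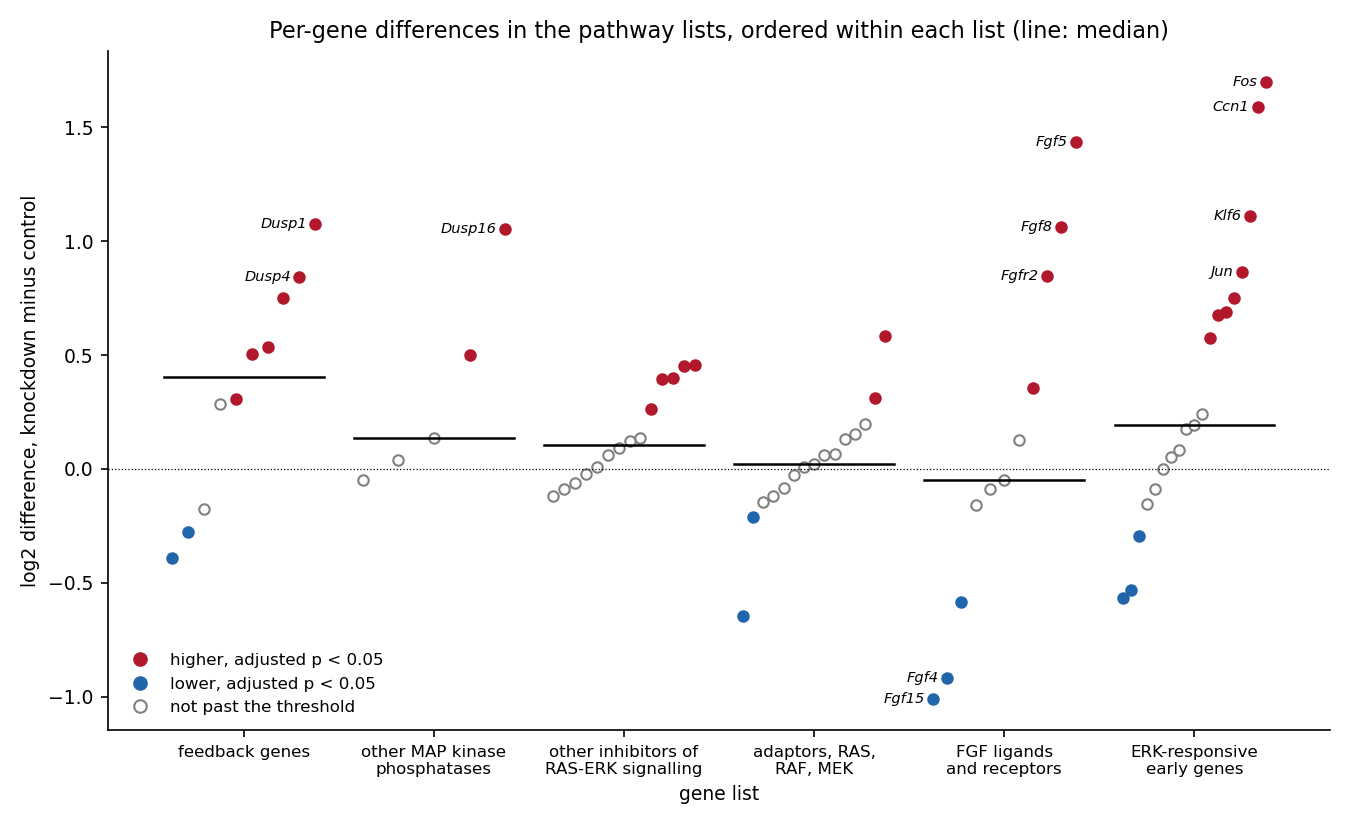
Log2 difference, knockdown minus control (vertical axis), for every measured gene of 6 lists (horizontal axis), ordered within each list, with the median as a black line. Red and blue mark genes past an adjusted p of 0.05, higher and lower, and grey open circles the rest; genes at or beyond 0.8 from 0 are named. The median of the feedback genes is 0.41 and those of the other lists lie between -0.05 and 0.19.

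Array medians lay between 6.07 and 6.09, and the 3′ minus 5′ log2 signal of the Gapdh control sets was -0.14 to -0.12 in controls and -0.13 to -0.10 in knockdown. Embryonic stem cell markers identified the cells, with Pou5f1 at 13.93 in controls, yet 4 of 8 fell, led by Zfp42 and Esrrb, which fell by 0.42 and by 0.50. Pou5f1 fell by 0.24 (limma adjusted p = 0.0324; and its call held in just 1 of the 6 omissions of an array, that of knockdown array 3), and Nanog differed by 0.15 without passing. Their summed linear signal was 83176 to 85366 in controls and 75966 to 77933 in knockdown. Of 11 trophectoderm markers 9 rose and 0 fell, led by Krt19 and Krt8 at 2.40 and 2.28, with Cdx2 at 0.77 and Elf5 below the lower quartile throughout. Their sum was 3585 to 3857 in controls and 12760 to 14456 in knockdown. Beside every marker count here, 12.9% of all genes rose and 11.3% fell. For 8 primitive endoderm markers 1 rose (Dab2), close to that share, and 2 fell. The differences were -0.40 for Gata6 and -0.33 for Sox17, with sums of 1049 to 1131 in controls and 967.0 to 1178 in knockdown. Of 8 fibroblast markers 2 rose, Col3a1 at 0.63 and Col1a1 at 0.28, with sums of 500.1 to 520.4 and 510.6 to 545.5. Col3a1 rose from a mean control signal of 4.50, near the lower quartile of 4.65 to 4.70. The call of Col1a1 was lost in 6 of its 8 alternatives. Of 6 neuroectoderm markers 2 rose and 2 fell, led by Map2 at 0.80 and Pax6 at -0.97, with Zic1 below the lower quartile and sums of 1256 to 1317 and 1204 to 1421. Leaving out single arrays left 2 to 4 embryonic stem cell markers lower, 0 to 2 primitive endoderm markers higher and 0 to 2 lower, and 1 to 2 fibroblast markers higher, with the other marker counts the same. The part of these shifts in the differences of the feedback genes was not tested, and in bulk RNA fewer cells of a type and less RNA per cell cannot be told apart. The level of Panct1 itself was not analysed here.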

How the data were processed

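Total RNA of 6 samples was measured on Affymetrix Mouse430 version 2 arrays. The authors deposited 1 log2 signal per probe set and array; per the submitters' processing notes, GCOS 1.4 and RMA were used, and RMA corrects background, quantile-normalises and summarises probes. Which arrays were normalised together is not given in the sources used here. RMA pulls small differences of dim probe sets towards 0.

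Values were used as deposited, and groups and replicate numbers came from titles. The labels do not say that replicates were separate cultures; the p-values therefore rest on variation among these 6 samples, possibly technical. At most 3.20% of values were equal on any 2 arrays, counted at the deposited decimals. Of 45101 rows, 64 control sets were left out. A platform table gave 34945 probe sets 1 symbol, 932 several and 9160 none, and 34741 symbols were updated by gene ID through RefSeq (GRCm38.p6). Group differences were fitted with limma 3.58.1 (lmFit, eBayes; statmod 1.5.0, R 4.3.3) on all probe sets, and again on the probe set with the highest mean per gene, which serves for the gene lists. Tests were two-sided, with Benjamini-Hochberg adjustment over all features and a threshold of 0.05. The script was tested on simulated data. The number of arrays limits the precision.

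Members, lists and tests were chosen with earlier results of these data known. Named were all members' probe sets, the 5 genes with the smallest p in each pathway list plus Fgf4, Fgf5, Etv4, Etv5, Egr1, Fos and Myc, the 2 smallest in each marker list plus Pou5f1, Nanog and Cdx2, and the 3 genes nearest to Dusp1 and Spry1. Markers named beyond these are those below the lower quartile. Fgfr3, Fgf17, Araf, Sos1 and 4 early response genes were added after their values were seen. Alternatives were a replicate block, median centring, repeated quantile normalisation, trend with robust variance, array weights, filters on dim and cross-hybridising probe sets, leaving out each array, a 1.5-fold minimum, and other choices of probe set per gene.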

Additional observations from a re-analysis of the deposited data

How the results depend on the processing

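Among the members' probe sets, 337 of 367 alternative values kept their side of the threshold, 22 lost and 8 gained a call, and no called value changed sign. In 17 the sign of a value not called in either setting differed. With a 1.5-fold minimum, 4 members' probe sets rose and 1 fell (all probe sets: 1375 and 711). Per gene 3 members rose and 0 fell by limma, beside 837 and 390 of all genes. All 10 members had an unadjusted p under 0.05, as did 6379 of all 18193 genes.

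Leaving out single arrays gave 7 to 8 members' probe sets higher and 3 to 5 lower, 6 to 7 member genes higher and 1 to 2 lower, and 1901 to 2501 of all probe sets lower, the fewest without control array 1. Other inhibitors rose in 3 to 5, and cascade genes rose in 1 to 2 and fell in 1. With the mean of probe sets 0 cascade genes rose.

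Replicate numbers did not pair the arrays: same-number deviations from the group means correlated at -0.16, -0.30 and -0.15, and 0 of 6 arrays correlated best with their own number. With the replicate block, 1965 of all probe sets and 1 cascade gene fell, and the adjusted p was 0.0557 for Dusp5 and 0.0771 for Spry2, whose calls were lost, and 0.0425 for Spred2 on 1436892_at, which gained one. A probe set filter or other scaling moved no member's call except those of Spred1 and the dimmer Spry2 set.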
